A study of Mus musculus with 4 samples.

Results

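Fragments of transcripts from 9 genes of the basement membrane were followed in small RNA libraries of mature sperm collected from the tail (cauda) of the epididymis of adult C57BL/6 mice. The genes were Col4a1, Col4a2, Col4a5, Col8a2, Lama2, Lamb1, Lamc1, Nid1 and Hspg2, 9 of the 16785 genes to which RefSeq transcripts of the 2 deposited tables could be assigned. A gene's value is the sum over its RefSeq transcripts in RPM, reads that the authors scaled to the size of each library. The study set 2 mice labelled "Extra cross to wildtype" against 2 mice labelled "Original cross", with 1 library per mouse. Its title names epigenetic silencing of the LoxP site, a target of Cre recombinase, to which sperm differ in susceptibility. All 4 libraries came from washed cauda sperm and shared 1 sequencing lane, and nothing in the labels says which cross was the susceptible one, nor which alleles either cross carried. The 2 replicate numbers came as separate tables, each with 1 library of each cross.

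The basement membrane is the thin sheet of extracellular matrix that underlies epithelia and surrounds muscle fibres, nerves and small vessels. Laminins, trimers of an alpha, a beta and a gamma chain, assemble on the cell surface, type IV collagen forms a second network, and nidogen and the proteoglycan perlecan bridge the networks. In the epididymis such sheets lie under the duct epithelium and around the smooth muscle of the wall. Spermatozoa themselves have none.

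The members were selected on their RPM in both crosses, which were already known, so the differences between the crosses are given as a description with no test. The RefSeq rows of original-cross replicate 1 were deposited on a scale 26.2 times below that of its other classes and were multiplied by that ratio. Read as deposited, the log2 fold changes of all 9 genes over both tables would be positive, as would the median over all genes tested (1.49). The ratio does not touch the table of replicate 2, where all 9 genes were lower in the extra cross. With the ratio, 1 read was worth 0.642 and 0.238 RPM in extra-cross replicates 1 and 2, and 1.58 and 0.561 RPM in original-cross replicates 1 and 2. Expressed in reads, the 9 genes together held 261 and 730 reads in the extra-cross libraries and 225 and 558 reads in the original-cross libraries. Of genes in original-cross replicate 1 with sums of 3 to 40 reads, 70.5% were whole numbers of reads within 0.05 reads, and 45.7% of those were odd. Had the commonest RefSeq value been taken as 1 read, 6.77% of the whole sums would have been odd, against 49.1% to 51.9% in the other 3 libraries.

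On the RPM scale all 9 genes were lower in both extra-cross libraries than in both original-cross libraries. Under median-ratio scaling 8 of the 9 fold changes were negative, that of Col4a1 excepted. Divided by the factors of that scaling, the values of Col4a1, Col4a2, Lamb1 and Lamc1 overlapped between the crosses. Summed, the 9 genes had 167 and 173 RPM in the extra cross (170 ± 4.32, SD, n = 2) and 355 and 313 RPM in the original cross (334 ± 29.9, SD, n = 2). The sum in the extra cross was thus 0.471 times that in the original cross in the table of replicate 1 and 0.555 times in the table of replicate 2. As a share of all RefSeq RPM, the 9 genes held 0.127% and 0.128% in the extra cross against 0.171% and 0.201% in the original cross. Among the 477 RefSeq genes that averaged at least 10 RPM, 54.1% were likewise lower in the extra cross with no overlap between the crosses, and 4.4% were higher with no overlap. The median log2 fold change was -0.85 over the 9 genes and -0.50 over the 477 genes. Scaling by median ratios moved these medians to -0.39 and 0.02 and turned Col4a1 to a positive value of 0.10, with the other 8 genes still negative. In these bulk libraries, fewer cells of a type and less RNA per cell cannot be told apart.

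**Figure D1:**
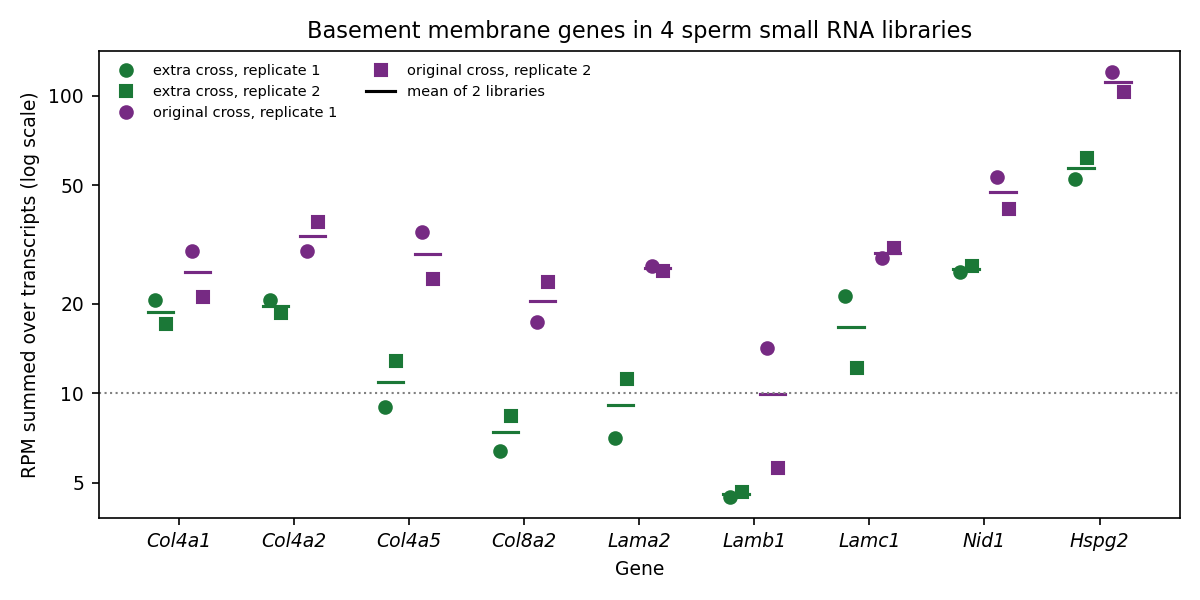
RPM summed over transcripts (log axis) for each of the 9 basement membrane genes, with 1 point per library and a line at the mean of the 2 libraries of each cross; the dotted line marks the minimum of 10 RPM. Each gene's 2 extra-cross points lie below its 2 original-cross points, from Lamb1 (4.49 and 4.66 against 14.2 and 5.61 RPM) to Hspg2 (52.6 and 61.9 against 120 and 103 RPM). Under median-ratio scaling the fold change of Col4a1 is positive, and Col4a1, Col4a2, Lamb1 and Lamc1 overlap between the crosses.

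Type IV collagen, the network-forming collagen of all basement membranes, is in most tissues a trimer of the chains encoded by Col4a1 and Col4a2. The pair lies head to head on chromosome 8, Col4a1 at 11198423 to 11312889 and Col4a2 at 11312805 to 11449287 (GRCm38), so the annotated genes overlap by 85 bases on opposite strands. Whether reads were counted by strand is not stated, and reads from that stretch cannot be assigned to 1 gene. The RefSeq promoter windows of build GRCm38.p6, 250 bases before to 50 bases after a start, are shown because they overlap by 78 bases. They run 5′ to 3′ on each gene's own strand, with 2 motifs in capitals, each searched on both strands: CCAAT (the CCAAT box) and GGGCGG (a GC box, the kind of element bound by Sp factors).
Col4a1, chr8:11312777-11313076, minus strand: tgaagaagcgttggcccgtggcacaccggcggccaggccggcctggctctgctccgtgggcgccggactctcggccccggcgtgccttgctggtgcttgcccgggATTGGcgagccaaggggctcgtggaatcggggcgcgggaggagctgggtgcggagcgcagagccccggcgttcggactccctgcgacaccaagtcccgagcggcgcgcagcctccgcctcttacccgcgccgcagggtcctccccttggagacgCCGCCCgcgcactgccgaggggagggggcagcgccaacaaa
Col4a2, chr8:11312555-11312854, plus strand: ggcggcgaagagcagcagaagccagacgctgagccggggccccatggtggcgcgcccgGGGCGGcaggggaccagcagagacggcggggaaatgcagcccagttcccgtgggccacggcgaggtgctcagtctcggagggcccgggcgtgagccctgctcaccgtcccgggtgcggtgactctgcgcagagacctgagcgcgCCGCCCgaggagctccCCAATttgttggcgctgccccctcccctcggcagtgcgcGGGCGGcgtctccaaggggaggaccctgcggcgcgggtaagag
Each window held 1 CCAAT box, and the window of Col4a2 held 3 GC boxes against 1 in that of Col4a1. The GC box of Col4a1 and the last one of Col4a2 are the same bases, inside the overlap, read from opposite strands. The start sites on which these windows rest lie 21 bases apart.

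Col4a1 had 20.5 and 17.0 RPM in the extra-cross libraries, against 30.0 and 21.0 RPM in the original-cross libraries. The lowest original-cross value was barely above the highest extra-cross value, and the log2 fold change was -0.41 ± 0.32 (SE), the smallest of the 9. It was -0.16 without original-cross replicate 1 and -0.65 without original-cross replicate 2. Col4a2 had 20.5 and 18.6 RPM in the extra cross, against 30.0 and 37.6 RPM in the original cross, and its log2 fold change was -0.75 ± 0.31. The crosses were therefore farther apart for Col4a2 than for Col4a1 in the table of replicate 2 (-0.98 against -0.29 on the log2 scale) and alike in that of replicate 1 (-0.53 for both).

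In reads, Col4a2 and Col4a1 had the same number in extra-cross replicate 1 (32 reads each) and in original-cross replicate 1 (19 reads each). In extra-cross replicate 2 they had 78.3 and 71.7 reads, so Col4a2 made up 52.0% of the pair (exact Clopper-Pearson 95% interval, 43.7% to 60.2%, on reads rounded to whole numbers). Original-cross replicate 2 had 67 reads for Col4a2 and 37.4 for Col4a1, a share of 64.4% (54.4% to 73.6%), an interval that lies above an even split but overlaps those of the other 3 libraries. Whether the equal numbers in the libraries of replicate 1 are a coincidence or come from how reads were assigned to the pair cannot be told from the deposited values. These intervals cover counting error only, since reads of a PCR library without molecular tags are not independent molecules.

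Col4a5, the X-linked chain mutated in Alport syndrome, joins networks with Col4a3 and Col4a4 or with Col4a6. It lies on chromosome X at 141475370 to 141689236 and had 8.99 and 12.8 RPM in the extra cross, against 34.8 and 24.1 RPM in the original cross. Both extra-cross values lay far below both original-cross values, and its log2 fold change of -1.35 ± 0.33 was far below that of Col4a1. Within the tables it was -1.84 in replicate 1 and -0.86 in replicate 2. The 5 RefSeq transcripts of Col4a5 had nearly the same values in each library, the lowest at 0.912 to 0.971 times the highest, as when reads common to all isoforms are divided evenly among them.

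Col8a2, on chromosome 4 at 126286794 to 126314330, encodes a short-chain collagen best known from Descemet's membrane of the cornea. It had 6.42 and 8.40 RPM in the extra cross, against 17.4 and 23.6 RPM in the original cross. The difference was much the same in the tables of replicate 1 (-1.31 on the log2 scale) and replicate 2 (-1.39), with a log2 fold change of -1.35 ± 0.36. The 2 values of Col8a2 in replicate 1 rest on 10 reads in the extra cross (95% Poisson interval 4.8 to 18.4) and 11 reads in the original cross (5.49 to 19.7).

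The laminin genes encode the chains of the cross-shaped trimers that start basement membrane assembly. Lama2, Lamb1 and Lamc1 together encode laminin-211, the laminin of muscle and nerve sheaths. Lama2, the alpha2 chain whose loss causes muscular dystrophy, lies on chromosome 10 at 26981285 to 27617191. It had 7.06 and 11.2 RPM in the extra cross, against 26.9 and 25.8 RPM in the original cross. The original-cross libraries were close to each other, and the log2 fold change of -1.46 ± 0.33 was the lowest of the 9 genes. Lama2 was the lowest in neither table alone. In replicate 1 it was at -1.79, on 11 and 17 reads in the extra and original cross, with Col4a5 at -1.84. In replicate 2 it was at -1.14, with Col8a2 at -1.39 and Lamc1 at -1.28. Of the 5 transcripts of Lama2, 4 had equal values in every library, and the remaining one had 0.490 and 0.821 times that value in the extra cross and 0.658 and 0.554 times in the original cross.

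Lamc1 encodes the gamma1 chain, part of most laminin trimers, and lies on chromosome 1 at 153218922 to 153332786. It had 21.2 and 12.1 RPM in the extra cross, against 28.4 and 30.9 RPM in the original cross. Its extra-cross libraries differed from each other by a larger ratio than those of the other 8 genes, and the log2 difference was -0.41 in the table of replicate 1 and -1.28 in that of replicate 2 (-0.84 ± 0.34 over both). Lamb1, the beta1 chain, lies on chromosome 12 at 31265146 to 31329644. It had 4.49 and 4.66 RPM in the extra cross, against 14.2 and 5.61 RPM in the original cross. With a mean of 7.25 RPM it fell below the minimum of 10 RPM and was not fitted. Its difference rests on original-cross replicate 1, with 9 reads there (95% Poisson interval 4.12 to 17.1), and was -0.22 on the log2 scale in the table of replicate 2.

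Reads of Lamc1 made up 75.0% of Lamc1 and Lama2 reads in extra-cross replicate 1 (exact 95% interval 59.7% to 86.8%) and 52.0% in extra-cross replicate 2 (41.7% to 62.2%), against 51.4% (34.0% to 68.6%) and 54.5% (44.2% to 64.4%) in the original-cross libraries. The 4 intervals overlap, and whether the ratios differ between libraries was not tested. Against Lamb1, Lamc1 held 82.5% and 71.8% of the reads in the extra cross and 66.7% and 84.6% in the original cross. The interval of original-cross replicate 1 (46.0% to 83.5%) includes an even split, those of the other 3 libraries lie above it, and all 4 overlap.

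**Figure D2:**
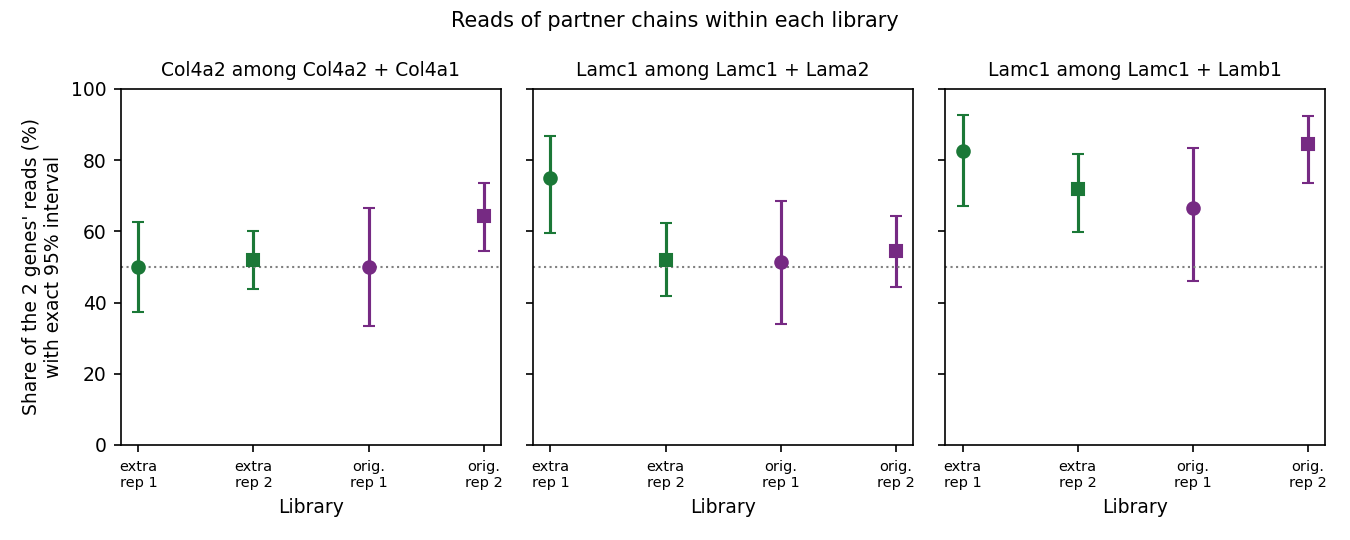
Share of reads (%) held by the first-named gene of each of 3 gene pairs, in each library, with exact 95% binomial intervals that cover counting error only; the dotted line marks an even split. Intervals exclude an even split for Col4a2 in original-cross replicate 2 (64.4%) and for Lamc1 with Lama2 in extra-cross replicate 1 (75.0%). For Lamc1 with Lamb1 they exclude it in every library but original-cross replicate 1. Within each pair the intervals of the 4 libraries overlap.

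Nid1 and Hspg2 encode the bridging components, nidogen-1, which binds laminin and type IV collagen, and perlecan, a large heparan sulfate proteoglycan. Their promoter windows are shown as those of the genes with the most reads per kilobase, with the same capitals as above.
Nid1, chr13:13437352-13437651, plus strand: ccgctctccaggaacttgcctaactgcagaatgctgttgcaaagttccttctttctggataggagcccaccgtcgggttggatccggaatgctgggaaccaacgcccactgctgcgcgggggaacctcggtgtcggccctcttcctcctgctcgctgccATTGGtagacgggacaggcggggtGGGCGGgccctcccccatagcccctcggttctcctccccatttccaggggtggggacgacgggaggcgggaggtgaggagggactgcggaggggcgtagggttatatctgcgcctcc
Hspg2, chr4:137468553-137468852, plus strand: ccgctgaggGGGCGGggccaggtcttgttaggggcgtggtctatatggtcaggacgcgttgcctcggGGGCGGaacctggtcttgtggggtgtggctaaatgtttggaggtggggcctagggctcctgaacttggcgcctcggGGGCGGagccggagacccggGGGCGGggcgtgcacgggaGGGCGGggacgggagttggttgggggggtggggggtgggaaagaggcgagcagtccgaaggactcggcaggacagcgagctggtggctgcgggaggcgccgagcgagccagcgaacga
The window of Hspg2 held 5 GC boxes and no CCAAT box, and that of Nid1 held 1 of each. RefSeq windows were found for 8 of the 9 genes (all but Lamc1). A GC box was in 8 of 8, a CCAAT box in 5 of 8 and TATAAA, on either strand, in 0 of 8. Among all 32851 windows of the table, 35.7% held a GC box, 37.4% a CCAAT box and 13.6% TATAAA. A match is a run of letters and says nothing of binding.

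Nid1, on chromosome 13 at 13437602 to 13512275, had 25.5 and 26.7 RPM in the extra cross, against 53.3 and 41.7 RPM in the original cross. Its extra-cross libraries were nearly equal, and the log2 fold change was -0.83 ± 0.31, with -1.03 and -0.62 within the tables of replicates 1 and 2. Hspg2, on chromosome 4 at 137468751 to 137570630, was the gene with the most RPM of the 9. It had 52.6 and 61.9 RPM in the extra cross, against 120 and 103 RPM in the original cross. These stand for 82 and 260 reads in the extra cross and 76 and 183 reads in the original cross, the largest read numbers behind any of the 9 genes. Its log2 fold change was -0.95 ± 0.32, with -1.17 and -0.72 within the tables. The 3 transcripts of Hspg2 had nearly equal values in all 4 libraries, the lowest at 0.992 times the highest or closer.

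Levels of different genes can be compared per kilobase of transcript. In the extra cross Nid1 (4.19 and 4.38 RPM per kb) and Hspg2 (3.71 and 4.37 RPM per kb) led and did not differ beyond the spread of the libraries. Col4a2 (3.18 and 2.89 RPM per kb) and Col4a1 (3.11 and 2.58 RPM per kb) followed, below both. Next by mean came Lamc1 (2.78 and 1.59), Col8a2 (1.48 and 1.94) and Col4a5 (1.38 and 1.96 RPM per kb), which overlapped, and last Lama2 (0.734 and 1.16) and Lamb1 (0.777 and 0.806 RPM per kb). Lamc1 also overlapped Col4a1. In the original cross Hspg2 (8.46 and 7.24 RPM per kb) and Nid1 (8.76 and 6.84 RPM per kb) led as well. They were followed by a block in which neighbours overlapped, Col4a2 (4.65 and 5.83), Col8a2 (4.01 and 5.44), Col4a5 (5.32 and 3.69), Lamc1 (3.73 and 4.05) and Col4a1 (4.54 and 3.17 RPM per kb). Lama2 (2.79 and 2.68 RPM per kb) and Lamb1 (2.46 and 0.970 RPM per kb) again came last, and there Lama2 lay above Lamb1 in both libraries.

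**Figure D3:**
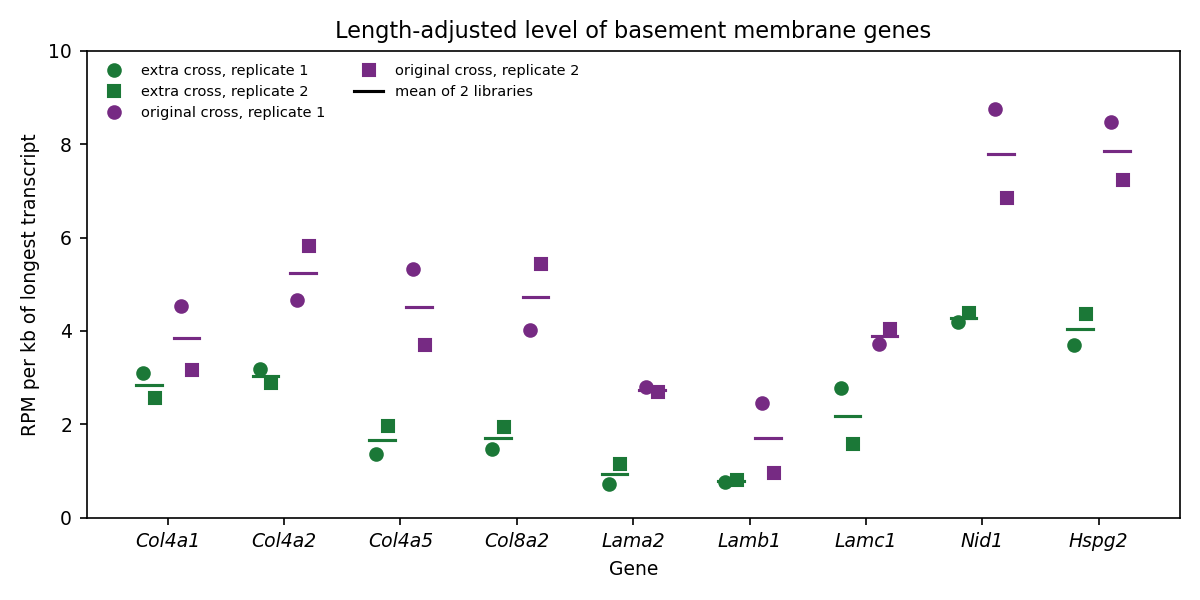
RPM per kilobase of the longest annotated transcript (linear axis from 0) for the 9 genes, with 1 point per library and a line at the mean of the 2 libraries of each cross. Nid1 and Hspg2 are highest in both crosses (means of 4.29 and 4.04 in the extra cross, 7.80 and 7.85 in the original cross), and Lamb1 is lowest (0.791 and 1.71).

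The 9 genes have long transcripts, from 4.33 kb (Col8a2) to 14.2 kb (Hspg2), against a median of 3.46 kb over the 463 of 477 tested genes with an annotated transcript. Their GC content ran from 47.7% (Lama2) to 60.9% (Hspg2), around the tested median of 51.1%. Across those 463 genes, which share the same 4 libraries, Spearman's rho of the log2 fold change was -0.36 with transcript length and -0.26 with GC content. Longer genes thus tended to lower fold changes, and the part of length in the difference of the 9 genes was not tested. The 477 genes mix messenger RNAs with short noncoding RNAs. Of the small nucleolar RNAs among them most had positive fold changes (such as Snord43, 1.11), though not all (Snord14e, -0.76). The correlations and the medians of length and fold change cover this mixed set, and messenger RNAs alone were not examined.

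Relative to all genes tested, the log2 fold changes of 8 of the 9 genes lay below the median of -0.50, and that of Col4a1 lay above it. Col4a5, Col8a2 and Lama2 were below -1, as were 53 of the 477 tested genes (11.1%). In limma, fitted across the 477 genes with cross type as the only term, 0 genes (0%) were called at the 0.05 threshold after Benjamini-Hochberg adjustment. Before adjustment 114 of them (23.9%) had a p below that value. Of the 8 basement membrane genes that were fitted 0 were called, from which nothing is read, since they were selected on this contrast.

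**Figure D4:**
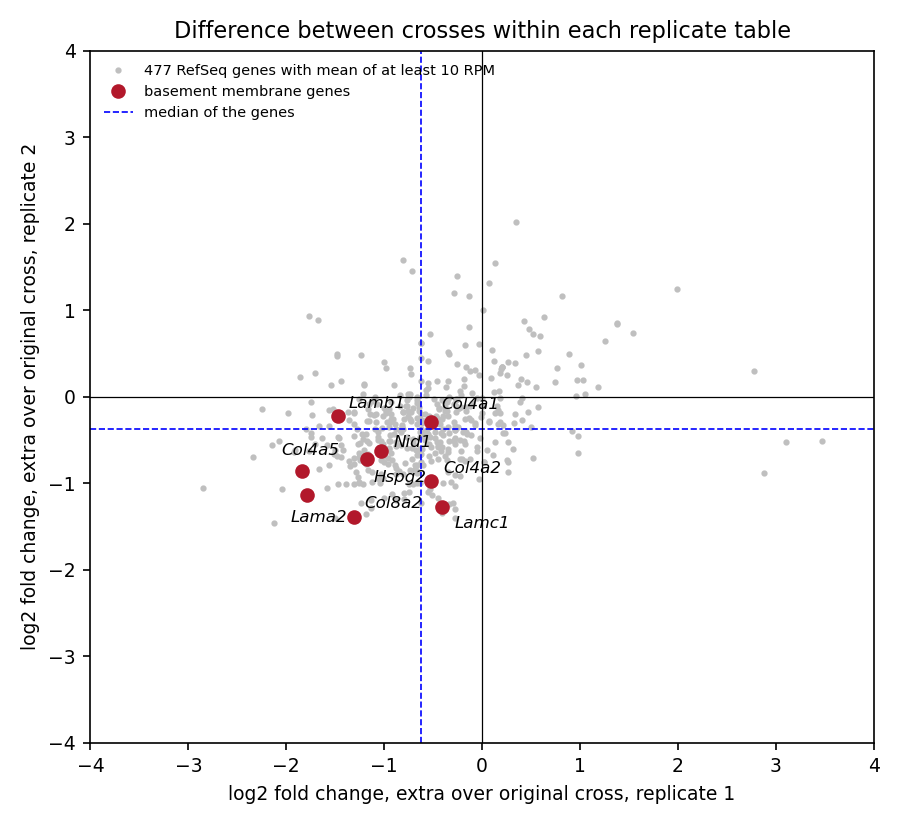
Log2 fold change of the extra over the original cross, on the log2(RPM + 1) scale, in the table of replicate 1 (horizontal) and of replicate 2 (vertical), for the 477 RefSeq genes with a mean of at least 10 RPM (grey) and the 9 basement membrane genes (red); dashed lines mark the medians of the 477 genes. All 9 genes are below 0 in both tables, as the medians are (-0.62 and -0.37), and Col4a1 (-0.53 and -0.29) lies above both medians; under median-ratio scaling Col4a1 is positive over both tables.

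The other genes of the pathway were taken from a list of 61 components, receptors and enzymes. All but Egfl6 had reads in at least 1 library, and 17 had a mean of at least 10 RPM. In limma 0 of the 17 were called at an adjusted p of 0.05, beside 0 of all 477 genes tested. Before adjustment 6 of the 17 had a p below 0.05 in limma, beside 23.9% of all genes tested. Of the 17, 11 were lower in the extra cross with no overlap and 0 were higher, beside 54.1% and 4.4% of all genes tested. Their median log2 fold change was -0.60, against -0.50 over all genes tested. Of the 11, Nid2 (means of 7.53 and 16.5 RPM in the extra and original cross) and Fras1 (9.51 and 16.9 RPM) passed the minimum only through the original cross. Listed genes below the minimum separated the crosses in both directions, such as Agrn (higher in the extra cross) and Hmcn1 (lower). All 17 fold changes were negative on the RPM scale, and under median-ratio scaling those of Col15a1, Col18a1, Itgb1, Ddr2, Mmp2 and Timp2 turned positive, with a median of -0.10.

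Among the 9 components in the fit, 7 were lower with no overlap, beside 54.1% of all genes tested, and the median was -0.78 (-0.25 under median-ratio scaling, where Col15a1 and Col18a1 turned positive). Sparc, a collagen-binding matrix protein, had 184 and 202 RPM in the extra cross, against 318 and 345 RPM in the original cross (log2 fold change -0.78 ± 0.32, limma adjusted p = 0.193). Lamb2, the laminin beta2 chain, had 32.1 and 33.1 RPM in the extra cross, against 77.4 and 54.0 RPM in the original cross (-0.97 ± 0.33, adjusted p = 0.18). Smoc2, a relative of Sparc, had 27.0 and 24.5 against 41.1 and 33.7 RPM. Col15a1, a collagen of the basement membrane zone, had 16.1 and 26.3 RPM in the extra cross and 22.1 and 38.6 RPM in the original cross, which overlap. Lamb2 was the only 1 of 8 other laminin chains above the minimum. Of the 3 other type IV chains only Col4a4, named after its values were seen, was above it, at 8.99 and 12.6 against 17.4 and 18.5 RPM.

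Of the 4 receptors in the fit, 1 was lower without overlap, beside 54.1% of all genes tested, and the median was -0.45 (0.04 under median-ratio scaling). Dag1, which encodes the laminin receptor dystroglycan, had 14.1 and 17.6 RPM in the extra cross, against 23.7 and 25.2 RPM in the original cross. The beta1 integrin gene Itgb1 (17.3 and 12.0 against 23.7 and 15.1 RPM), the collagen receptor gene Ddr2 (12.2 and 9.04 against 15.8 and 11.8 RPM) and the laminin receptor gene Bcam (8.35 and 8.80 against 20.5 and 7.85 RPM) overlapped between the crosses. Among enzymes and their partners, 3 of 4 were lower without overlap, beside 54.1% of all genes tested, and the median was -0.62 (-0.10 under median-ratio scaling, where Mmp2 and Timp2 turned positive). Timp2, an inhibitor of matrix metalloproteinases, had 43.7 and 44.7 against 68.0 and 58.3 RPM, P4hb, a subunit of the collagen prolyl hydroxylase, had 19.3 and 14.6 against 31.6 and 25.8 RPM, and Serpinh1, the collagen chaperone HSP47, had 10.9 and 12.4 against 28.4 and 21.9 RPM. Mmp2, a gelatinase that cuts type IV collagen, had 18.0 and 16.6 RPM in the extra cross and 14.2 and 25.8 RPM in the original cross, and did not separate the crosses.

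Markers of cell types other than sperm that could be present were summed by list. Only fibroblast and epididymal epithelium markers reached the limma fit, and 0 of them were called, as were 0 of all 477 genes tested. All 8 fibroblast markers were above the minimum and summed to 1313 and 1544 RPM in the extra cross, against 3053 and 3576 RPM in the original cross, and 6 of the 8 were lower without overlap, beside 54.1% of all genes tested. The fibrillar collagen genes Col1a1 (439 and 643 against 1244 and 1700 RPM), Col1a2 (311 and 350.5 against 682 and 801 RPM) and Col3a1 (233 and 244 against 531 and 626 RPM) were the most abundant of these, with Col6a1. The median of the fibroblast markers was -0.85, and -0.32 under median-ratio scaling, where Dcn and Lum turned positive. Endothelial markers, none of 9 above the minimum, summed to 12.4 and 11.8 RPM in the extra cross, against 35.6 and 20.9 RPM in the original cross. Kdr, the most abundant of them, had 6 reads in each library of replicate 1. The 8 smooth muscle markers, also none above the minimum, summed to 26.1 and 30.0 RPM in the extra cross, against 36.6 and 45.1 RPM in the original cross. Epididymal epithelium markers had sums of 167 and 175 RPM in the extra cross, against 57.4 and 141 RPM in the original cross, and 3 of the 5 above the minimum were higher without overlap, beside 4.4% of all genes tested. The sums were farther apart in the table of replicate 1 than in that of replicate 2, where 6 of the 12 markers were lower in the extra cross (2 in replicate 1). Adam7, a gene of the epididymal epithelium, had 49.4 and 45.1 RPM in the extra cross, against 23.7 and 39.3 RPM in the original cross, Spink8 had 15.4 and 14.5 against 11.1 and 10.1 RPM, and Crisp1 had 14.4 and 15.3 against 6.85 and 13.2 RPM, while Lcn5 (21.8 and 55.9 against 4.74 and 23.0 RPM) and Lcn9 (21.2 and 9.04 against 1.58 and 13.5 RPM) overlapped. In original-cross replicate 1 these values rest on few reads, 15 for Adam7, 7 for Spink8, 4.33 for Crisp1, 3 for Lcn5 and 1 for Lcn9. Lcn9 passed the minimum only through the extra cross (means of 15.1 and 7.52 RPM in the extra and original cross). Blood markers summed to 12.6 and 15.4 RPM in the extra cross and 18.2 and 13.7 RPM in the original cross. Sperm markers stayed below the minimum in all 14 cases, with sums of 8.09 and 7.36 RPM in the extra cross and 4.74 and 10.1 RPM in the original cross, and Akap3, Fscn3 and Pgk2 were at 0 in all 4 libraries. The 4.74 RPM in original-cross replicate 1 stand for 3 reads. The part of these cells in the differences was not tested.

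**Figure D5:**
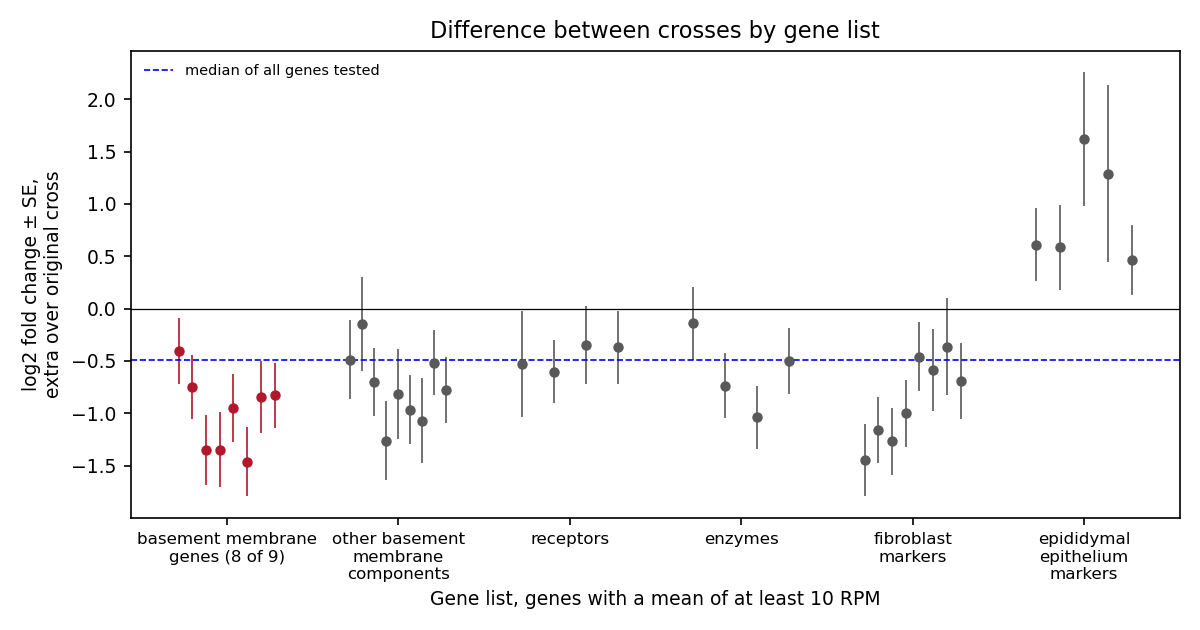
Log2 fold change of the extra over the original cross with its SE from limma, for genes with a mean of at least 10 RPM in 6 lists; each point is a gene and the dashed line is the median of the 477 genes tested (-0.50). The 8 fitted basement membrane genes lie between -1.46 and -0.41, fibroblast markers are below 0 and epididymal epithelium markers above it, and under median-ratio scaling Col4a1, Dcn, Lum and 6 genes of the other basement membrane lists turn positive.

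The genes whose profile over the 4 libraries was nearest to that of the 9 genes summed were named by the Euclidean distance between log2(RPM + 1) values, each centred on its mean. Col6a1, a chain of type VI collagen, was nearest, at a distance of 0.09 and with 94.0 and 95.3 RPM in the extra cross, against 196 and 186 RPM in the original cross. Igfbp4, which binds insulin-like growth factors, followed at 0.14 with 9.63 and 11.2 against 22.1 and 21.3 RPM. Mrc2, a collagen uptake receptor, was at 0.14 with 8.99 and 8.80 against 17.4 and 16.3 RPM, Col6a5 at 0.17 with 98.9 and 107 against 238 and 214 RPM, and Serpinh1 at 0.17. Of the 9 genes themselves, Hspg2 (0.13) and Nid1 (0.18) lay nearest to the sum, and Col4a1 and Lama2 (0.64 each) farthest among the 8 fitted. The median distance of the other tested genes was 0.72, and a distance over 4 libraries is a coarse measure.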

How the data were processed

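Cauda sperm small RNA was sequenced from 4 mice, 2 per cross. CASAVA 1.8.2, Bowtie 1.1.2 and build mm10 are named, with no role, per the submitters' processing notes. For trimming, annotation and reads with several matches the tools are not stated. The values are RPM, per the file headers, deposited by the authors in 2 tables of 53800 and 66068 features. Features absent from 1 of the tables were set to 0 there.

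Of 68433 RefSeq transcripts, 55925 (81.7%) matched a gene by accession without version and were summed per gene. The commonest miRNA value gave the worth of 1 read. Reads were not recovered as whole for enough genes to run a count model. With 2 libraries per cross, limma 3.58.1 (R 4.3.3, variance trend) was fitted to log2(RPM + 1) of 477 genes with a mean of at least 10 RPM, and fold changes on that scale understate those of low genes. SE are limma's. On simulated data with 477 genes, which held changes of 2-, 4-, 8- and 16-fold together, 5 of the fit's 155 calls were false. There it recovered 26% of 2-fold changes and 78% of 4-fold ones. These rates are for data with 155 calls, and recovery in the deposited data, with 0 genes called, was not tested. Named genes were the 9 members, up to 4 of the most abundant genes over the minimum in each pathway or marker list, and the 5 nearest profiles. Members and lists were chosen with earlier results of these data known. Lengths are from GENCODE M21. Tables and plots used Python 3.11.15, pandas 2.3.3, numpy 2.4.6, scipy 1.17.1 and matplotlib 3.10.9. The settings tried were 2 scalings, 2 treatments of the rescaled column, 2 pseudocounts, 2 filters, the highest transcript, no variance trend, a replicate block and leaving out each library.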

Additional observations from a re-analysis of the deposited data

How the results depend on the processing

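The number of genes past limma's threshold was 0 under every scaling, rescaling, pseudocount, filter, transcript and variance setting, and ranged from 1 to 42 with 1 library left out (42 without original-cross replicate 2 and 12 without original-cross replicate 1). In the wider basement membrane list it was 0 in the same settings and ranged from 0 to 2 with 1 library left out, where Fbln1 and Serpinh1 passed without original-cross replicate 2. Calls among the 9 genes are not given, since these were selected on this contrast. With a library left out, 1 cross holds a single library, whose variance is assumed to be like that of the others. The cause was not tested. The median log2 fold change of the 9 genes was -0.39 with median-ratio scaling, -0.47 scaled to the RefSeq sum, -1.33 with the commonest RefSeq value as 1 read and 1.07 with no rescaling, and ranged from -1.06 to -0.83 with 1 library left out. The unequal factors applied to original-cross replicate 1 account for the last 2 by construction. Minus the median of all genes tested, it lay between -0.75 and -0.30 in all 16 settings. The share of RefSeq RPM held by the 9 genes, with the highest transcript per gene, was 0.0764% and 0.0700% in extra-cross replicates 1 and 2 and 0.0920% and 0.114% in original-cross replicates 1 and 2, since fewer transcripts are summed. Of 135 values for single genes, 101 moved by less than 1 SD between the tables. The filters, the variance setting and the replicate block cannot change these values or the median of the 9 genes, so their sameness there is by construction. With a replicate block 0 genes passed and the median was -0.85; nothing in the labels says that these numbers pair mice, and deviations from the cross means correlated at 0.33 between same-numbered libraries. Depth limits Lamb1 most, since 3 reads are worth 4.74 RPM in original-cross replicate 1.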
